A study of Saccharomyces cerevisiae with 9 samples.

Results

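The regions described here are the 5′ ends of long yeast leaders, that is, the first 20 bases of the untranslated stretch in front of an open reading frame (ORF), in RNAs of a synthetic pool from Saccharomyces cerevisiae. A region was taken from each wild-type RNA whose leader, counted from the base after an added GGG to the start codon, had at least 40 nt, and the longest leader of each ORF was used. This gave 1505 regions of 1505 ORFs, from 2277 RNAs with such a leader, out of 4383 complete wild-type RNAs of 2370 ORFs and 5762 pool RNAs in the table used here. That table ends inside an RNA, 73 bases into it, so it holds part of the pool. The series measured RNA structure with dimethyl sulphate (DMS), which methylates unpaired A and C, in 3 groups of 3 libraries. In all groups the RNA was heated at 95 °C for 2 min. One group held denatured RNA with DMS. In the others the RNA was refolded and kept at 30 °C for 2 min, either with or without DMS. All groups held the same pool, transcribed by T7 RNA polymerase, with the GGG in front and a constant 3′ stretch of 20 bases behind, neither of which is part of the genes. The 6 value columns of the deposited table are headed by a replicate number alone, which 3 of the 9 libraries share (1 of each group), so it is not known which group they hold, and they were not used. Depth, reactivity and replicate error are therefore not given, and every value is a property of the sequence or of a structure predicted from it.

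In cells the 5′ end of a leader is set by where RNA polymerase II starts transcription. In yeast the polymerase prefers to start on a purine that follows a pyrimidine, and an A some bases upstream of the start site is also favoured. On a capped mRNA this end is bound by the cap-binding complex, from which the small ribosomal subunit scans towards the start codon. Helices close to the cap are known to hinder that loading, whereas A-rich leaders tend to lack stable structure.

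The leaders had a median length of 68 nt (quartiles 52 and 91 nt, maximum 122 nt), so a region lay between 21 and 122 nt before the start codon. Of the 1505 ORFs, 1461 matched a locus tag in the RefSeq gene table of assembly R64 and 1368 carried a gene symbol. The strand in an ORF's name was Watson for 1435 and Crick for 70. The RNA at which the table ends belongs to a Crick ORF. A suffix such as -A, which is given to ORFs added to the annotation later, was in the name of 51 of 1435 Watson and 64 of 70 Crick ORFs, so in most comparisons the strand and the kind of ORF cannot be told apart. For 594 ORFs more than 1 leader was long enough, and for 457 the leader used was the only one of the ORF. All 1505 regions differed from each other, and only 6 pairs differed at 4 or fewer positions. The closest pair, with 2 mismatches, came from UIP3 and PRM8, related membrane protein genes. Just inside the length limit, 33 leaders of 40 nt had a mean unpaired probability of 0.469 in the region, and just outside it 27 leaders of 39 nt had 0.502.

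The range of the regions is best seen in a few of them, written as DNA letters 5′ to 3′ from the deposited table. Capitals mark bases that are more likely paired than not (unpaired probability below 0.5) in the predicted ensemble of the whole pool RNA. The first 4 were among the most open, the next 4 among the most paired, and PCA1 among those with the highest opening energy. The last 2 were shown for a helix inside the region and for the longest run of A. Positions count back from the A of the start codon, with the base before it at −1.
MRP20, bases −52 to −33: acagaaaaaaaaataaaata
CSR1, bases −92 to −73: aacaaaatcaaacatacaaa
VAM3, bases −85 to −66: aaggaaggaaaatagaacaa
ENP2, bases −54 to −35: tcatttattacatcagttac
RAD16, bases −87 to −68: TAAGTCTGCGTGGTgTTTTC
CRS1, bases −51 to −32: TTGCTAATTGGCGTcGGTGA
MNT4, bases −106 to −87: tCGGTaGTGCTAGTTAACAC
PRC1, bases −71 to −52: AGAGAGAGAGAGAGAAAgAA
PCA1, bases −56 to −37: TtTTCGAGAGTctTCCAGGA
HSP12, bases −58 to −39: TctGATTATtcgATAATCtc
BDH1, bases −47 to −28: AgTCagaaaaaaaaaaaaaa

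The first leader base in the pool RNAs differed by the strand of the ORF. The number in the RNA name and the place of the start-site purine, given below, were also offset between strands. Whether the transcript 5′ ends themselves differ by strand was not tested. In the 1435 Watson-strand regions it was A in 43.9% (95% Wilson interval 41.4 to 46.5), U in 31.4%, G in 13.4% and C in 11.3%. In the 70 Crick-strand regions it was A in 54 (77.1%, 66.05 to 85.4), G in 13 and C in 3. None of the 70 began with U, and the upper bound of the Wilson interval is 5.20%. The C-starting regions were those of OST5, YGL194C-A and YHR182C-A, named after their values were seen. A purine thus opened 57.3% of Watson regions (54.7 to 59.8) and 95.7% of Crick regions (88.1 to 98.5), and the intervals do not overlap. Among ORFs with a suffixed name alone it opened 30 of 51 Watson regions (58.8%, 45.2 to 71.2) and 61 of 64 Crick regions (95.3%, 87.1 to 98.4).

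In its base shares, the first Watson position was closer to the second Crick position than to the first. Later Watson positions were compared with Crick position 1 alone, so a shift of the whole leaders was not tested. Watson position 1 differed from Crick position 1 by 38.4 percentage points, taken as the summed excess over the 4 bases, and from Crick position 2 by 7.28 points. Against Crick positions 3 and 4 the difference was 25.3 and 16.8 points. Crick position 1 was at least 36.7 points away from every Watson position between 2 and 40. The number in an RNA's name equalled the leader length in all 70 Crick regions, and was 1 more than the leader length in 1434 of 1435 Watson regions. The exception was NSP1, a nuclear pore gene, with a leader of 60 nt and the number 58.

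**Figure D1:**
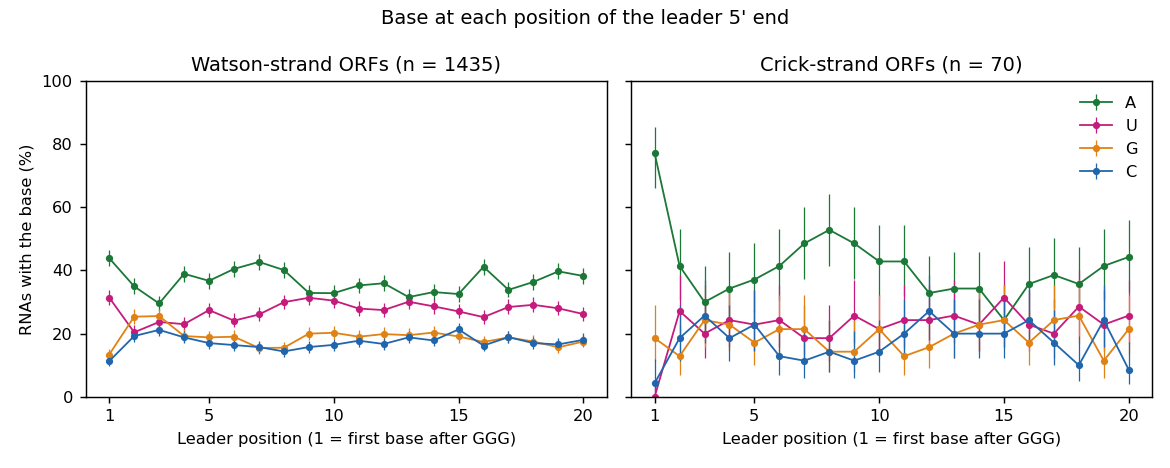
Share of regions (%) with A, U, G or C at each of the first 20 leader positions, for 1435 Watson-strand and 70 Crick-strand ORFs; bars are 95% Wilson intervals. A stands at 43.9% at Watson position 1 and at 77.1% at Crick position 1, and U is at 0 at Crick position 1.

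The bases just before a leader's first base are not part of its RNA, but many ORFs also had shorter leaders, whose starts lie inside the longest one. For 1015 ORFs there were 1540 such shorter leaders of at least 10 nt. Of these, 1524, from 1009 ORFs, were identical to the end of the longest leader, beginning between 11 and 108 nt inside it (median 27 nt). The stretches below are from ORFs with many shorter leaders, AIM7 on the Watson strand and KSH1 on the Crick strand. They show 10 bases before and 10 bases from the start of a shorter leader. The capital is the purine beside that start, which is the base before it in AIM7 and the first base itself in KSH1.
AIM7, shorter leader of 101 nt: aaagtgattAtcaattcttt
AIM7, shorter leader of 67 nt: gaatttatcAgctaccattg
AIM7, shorter leader of 31 nt: tagttttgcAattgcgtcct
AIM7, shorter leader of 19 nt: tgcgtcctcAaagcatcgag
KSH1, shorter leader of 69 nt: ggtaaacatcGtttgcaaaa
KSH1, shorter leader of 54 nt: caaaataactAgagagccgg
KSH1, shorter leader of 36 nt: ggatcgatttActttgcaaa

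At these inner starts the purine of the start site lay 1 base further upstream on the Watson strand than on the Crick strand. The base before the leader is −1, and the first leader base is 1. Of 1446 Watson starts, 97.3% had a purine at −1 (A in 79.3%) and 96.4% a pyrimidine at −2. A pyrimidine followed by a purine stood at −2 and −1 in 94.7% of Watson starts (95% Wilson interval 93.5 to 95.8) and at −1 and 1 in 1.24%. Of 78 Crick starts, 91.0% had a purine at 1 (A in 71.8%) and 85.9% a pyrimidine at −1. There the same step stood at −1 and 1 in 83.3% (73.5 to 89.99) and at −2 and −1 in 2.56%. Over all neighbouring bases of the longest leaders, a pyrimidine was followed by a purine in 22.95% of 102274 Watson pairs and 23.1% of 4879 Crick pairs. In ORFs with a suffixed name alone the step stood at −2 and −1 in 31 of 35 Watson starts (88.6%) and at −1 and 1 in 59 of 72 Crick starts (81.9%). Which of these bases is the transcription start was not tested.

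The upstream A showed the same offset. At position −9 it was present in 65.9% of Watson starts, against 45.5% at −10 and 44.5% at −8. At position −8 it was present in 76.9% of Crick starts, against 44.9% at −9 and 61.5% at −7. Over all leader bases A made up 36.99% in Watson and 38.0% in Crick leaders. On both strands the position with this high share of A lay 8 bases upstream of the purine of the step. Several starts can come from 1 ORF, so they are not independent, and the Crick values rest on 52 ORFs.

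**Figure D2:**
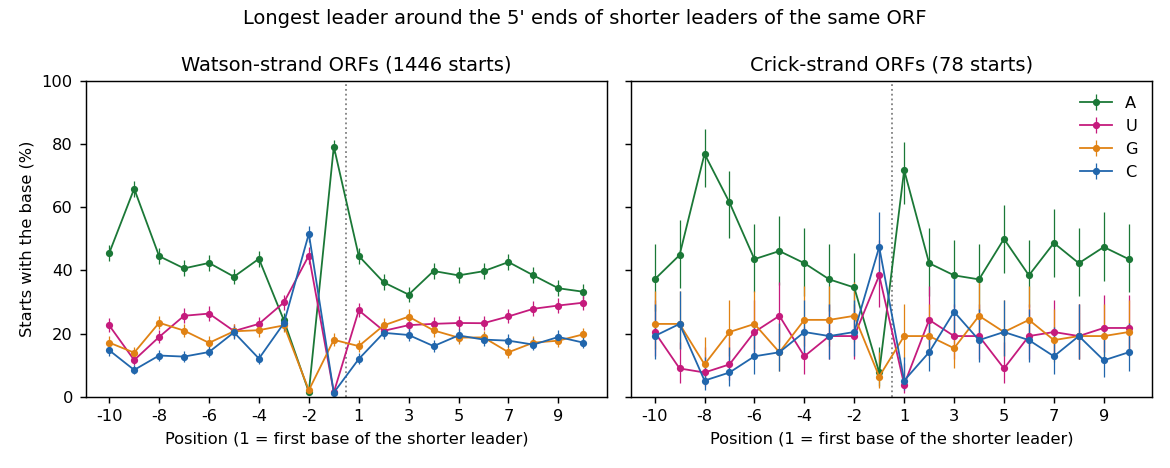
Bases of the longest leader (% of starts) around the first base of shorter leaders of the same ORF, for 1446 Watson and 78 Crick starts; position 1 is the first base of the shorter leader, the dotted line lies before it, and bars are 95% Wilson intervals. Next to the start, A stands at 79.3% at −1 on the Watson strand and at 71.8% at 1 on the Crick strand, and further upstream at 65.9% at −9 and 76.9% at −8.

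A was the most frequent base at all 20 positions over the 1505 regions. With leaders of at least 60 nt this held at 17 positions, and with the shortest qualifying leader of each ORF or in Crick ORFs alone at 19. The mean share was 36.8% ± 13.4 for A, 27.1% ± 13.02 for U, 18.9% ± 9.04 for G and 17.3% ± 8.83 for C (SD over 1505 ORFs). A and C together, the bases that DMS can report, made up 54.0% ± 13.4 of a region. Single regions ran from 5% to 85% A. Below, an interval of a mean difference that leaves out 0 counts as a difference. These intervals are 95% normal intervals and treat ORFs as independent.

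The 5′ ends held less A and more G than the end of the same leaders next to the start codon. A was 36.8% in the first 20 bases against 40.3% in the last 20, a difference of −3.56 percentage points (SE 0.483), and the 5′ end held the higher share in 563 of 1505 ORFs (37.4%). In the 70 Crick ORFs alone the difference was 1.50 points (interval −2.44 to 5.44). G was 18.9% in the first 20 bases against 16.03% in the last 20, a difference of 2.85 points (SE 0.312). For U the interval of the difference ran from −0.000658 to 1.78 points and for C from −0.790 to 0.431. The first 20 coding bases held less A still, so the 5′ ends exceeded them by 3.76 points (SE 0.437) in A, and for G the difference was −2.74 points (SE 0.308). The coding window begins with the start codon, so each ORF has a fixed A, U and G there. These fixed bases were not taken out, so part of the difference in G is given by the choice of window.

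Next to the following 20 bases the composition changed little. A was 36.8% in the first 20 bases against 35.9% in bases 21 to 40, a difference of 0.870 points whose interval ran from 0.00712 to 1.73. This difference did not hold with the shortest qualifying leader of each ORF, where it was −0.738 (interval −1.61 to 0.134), or in Watson ORFs alone, where it was 0.836 (interval −0.0466 to 1.72). G was 1.16 points higher in the first 20 bases (SE 0.321), and U was lower, with a difference of −1.03 points (SE 0.428). For C, 17.3% in the first 20 bases stood against 18.3% in bases 21 to 40 (SE of the difference 0.312).

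Runs of a single base were mostly of A. A run of at least 5 A lay in 115 of 1505 regions (7.64%, 95% Wilson interval 6.40 to 9.09) and one of at least 5 U in 61 (4.05%, 3.17 to 5.17). A run of at least 5 C and one of at least 5 G were each found in 1 region. BDH1, which encodes a butanediol dehydrogenase, had 14 A in a row, MUD1, which encodes a U1 snRNP protein of the spliceosome, 13, and AAT1, a mitochondrial aspartate aminotransferase gene, 10. The longest runs of U were 10 in TOS8, 9 in VPS27, an endosomal sorting gene, and 8 in RRP45, a subunit gene of the RNA exosome. The richest in G and C was GAT1, a GATA factor gene of nitrogen regulation, with 80% G and C, followed by SPO73 and PAC1 with 65% each.

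Upstream AUGs, which wild-type RNAs of the pool carry as a lower-case AGU, were more frequent near the 5′ end. Such a codon lay wholly inside the first 20 bases in 138 of 1505 ORFs (9.17%, 95% Wilson interval 7.81 to 10.7). It lay in bases 21 to 40 in 82 (5.45%, 4.41 to 6.71) and in the last 20 bases in 76 (5.05%, 4.05 to 6.28). Of the 148 codons in the first 20 bases, 18 began at position 1, the most at any position. Counted per 1000 possible first bases, there were 5.46 in the first 20 bases and 3.06 in the rest of the leaders.

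The predicted structure was taken from the ensemble of each whole RNA at 30 °C. Where pairs are counted for a single gene below, they are those of its lowest energy structure, which can differ from the ensemble. The unpaired probability of a base is 1 minus its summed pair probabilities, and that of a region is the mean over its 20 bases. It was 0.455 ± 0.142 (SD, n = 1505 ORFs), with quartiles of 0.360 and 0.539. Values ran from 0.0800 in RAD16 to 0.976 in the unnamed ORF YJR112W-A. In the lowest energy structure no base of the region was paired in 13 ORFs, at least 15 bases were paired in 240 (15.9%), and all 20 in RPS26B, a ribosomal protein gene named after its values were seen. In the ensemble, however, the region of RPS26B had an unpaired probability of 0.455, near the mean of all regions. The first 5 leader bases were free in 149 (9.90%).

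In the RNA as it is in the pool, the 5′ end was slightly more paired than the rest of the leader. The first 20 bases averaged 0.455, against 0.483 in bases 21 to 40, a difference of −0.0283 (SE 0.00509), with the 5′ end higher in 661 of 1505 ORFs (43.9%). Against the last 20 leader bases, which averaged 0.510, the difference was −0.0557 (SE 0.00508), and 575 ORFs (38.2%) were higher at the 5′ end. The first 20 coding bases averaged 0.442, and the 5′ end exceeded them by 0.0128 (SE 0.00464). At equal A, U and G share the 3 differences were −0.0280 (SE 0.00456), −0.0303 (SE 0.00457) and −0.0100 (SE 0.00433).

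This order depended on the added GGG. Without it, the 5′ end was the more open stretch, by 0.0424 (SE 0.00548) against bases 21 to 40, by 0.0130 (SE 0.00551) against the last 20 bases and by 0.0829 against the first 20 coding bases. At equal composition these differences were 0.0442, 0.0429 and 0.0565. Averaged over the region, the unpaired probability was 0.455 with the GGG and 0.524 without it, a difference of −0.0693 (SE 0.00253), and 1197 of 1505 regions (79.5%) were lower with the GGG.

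The effect was concentrated in the first few bases. At position 1 the mean unpaired probability was 0.300 with the GGG and 0.840 without it, at position 2 it was 0.378 and 0.688, at position 5 it was 0.482 and 0.532, and at position 20 it was 0.472 and 0.480. The GGG bases themselves had a mean of 0.340 ± 0.242. Their pairing went to the constant 3′ stretch by 37.6%, to the coding part by 29.4%, to the leader beyond base 20 by 18.1% and to the region itself by 14.99%. The GGG was added in the pool and is not part of the leader.

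**Figure D3:**
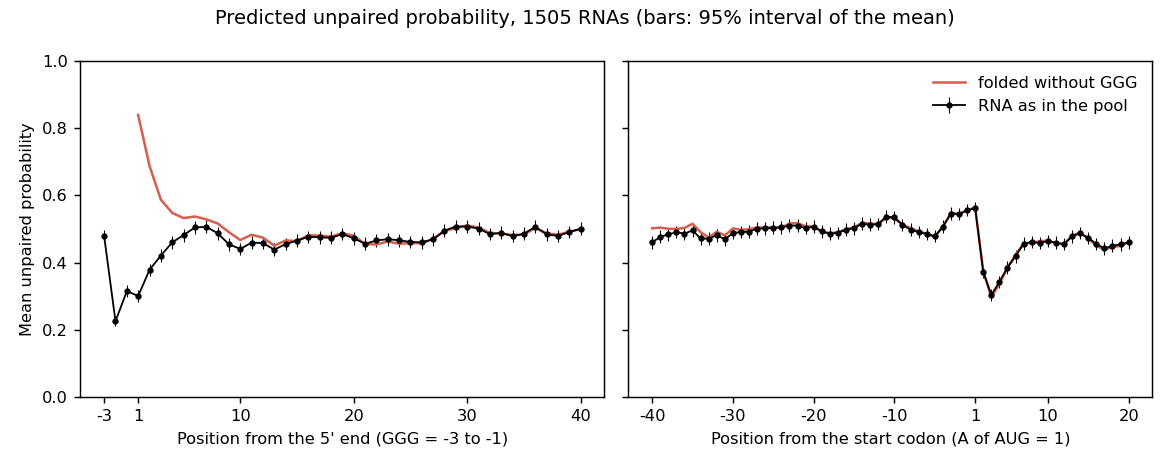
Mean predicted unpaired probability at each position over 1505 RNAs, counted from the 5′ end (left, with the GGG at −3 to −1) and from the start codon (right); black points are the pool RNA with 95% intervals of the mean, and the line in colour is the same RNA folded without the GGG. At position 1 the means are 0.300 with and 0.840 without the GGG, and the curves come together beyond about base 10.

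The paired bases of the region found partners all along the RNA. Of the pairing, 31.2% was with the rest of the leader, 29.3% with the coding part, 21.7% with the constant 3′ stretch, 15.1% within the region and 2.72% with the GGG. Taken as the mean over regions of each region's own share, the coding part had 27.4%, and 44.3% when the RNA was folded without the constant 3′ stretch. Per available partner base the constant stretch took the highest share, 0.591%, followed by the GGG with 0.495% and the region itself with 0.412%. The rest of the leader took 0.347% and the coding part 0.184%. The constant stretch was the main partner in 328 ORFs (21.8%), the rest of the leader in 495 and the coding part in 416.

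Pairing with the constant stretch was stronger at the 5′ end than in any of the other 3 windows. The mean pair probability with it was 0.118 ± 0.152 in the first 20 bases, 0.0366 ± 0.0905 in bases 21 to 40, 0.0280 ± 0.0808 in the last 20 leader bases and 0.0412 ± 0.104 in the first 20 coding bases. The 5′ end exceeded bases 21 to 40 by 0.0816 (SE 0.00460) and was higher in 1206 of 1505 ORFs. Without the GGG the first 20 bases kept 0.113, and bases 21 to 40 had 0.0529. In PCA1, which encodes a cadmium-exporting ATPase, 10 pairs joined bases 1 to 11 to this stretch. Averaged over the whole region of PCA1, the pair probability with the stretch was 0.682. In VHR1, a transcription factor gene of the biotin response, 7 pairs joined bases 6 to 12 to it, and in SPO73 9 pairs joined bases 2 to 11 to it. The averages over their whole regions were 0.596 and 0.463. The stretch is the same in all RNAs of the pool and is not part of the gene.

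Forcing the 20 bases open cost 7.29 ± 3.13 kcal/mol (SD, n = 1505), from 0.112 in YJR112W-A to 20.6 in the unnamed ORF YOR316C-A. The cost was below 2 kcal/mol in 38 ORFs (2.52%) and above 10 kcal/mol in 297 (19.7%). Without the GGG the mean was 5.19 ± 2.91 kcal/mol. Among named genes it was highest in GDT1, a Golgi cation transporter gene (19.03 kcal/mol), where 16 pairs joined bases 5 to 20 to bases 41 to 57 of the same leader. It was 18.6 in HMS2 and 17.1 in ALG6, a glucosyltransferase gene of protein N-glycosylation.

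**Figure D4:**
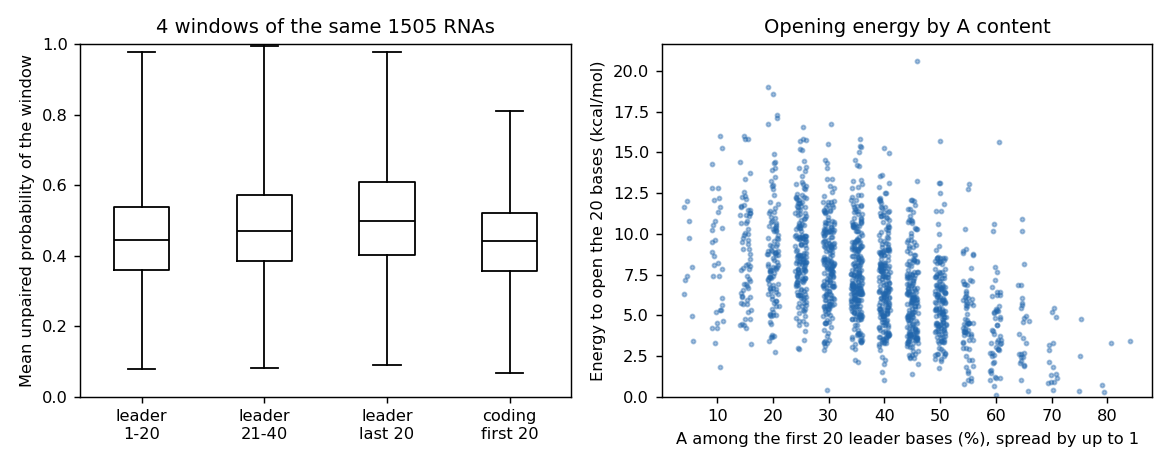
Left, mean unpaired probability of the first 20 leader bases, bases 21 to 40, the last 20 leader bases and the first 20 coding bases in the same 1505 RNAs (box, quartiles and median; whiskers, full range). Right, energy in kcal/mol to open the first 20 bases against their share of A (%), 1 point per ORF, spread sideways by up to 1 to limit overlap; the cost reaches 20.6 kcal/mol and the lowest costs lie mostly at high A.

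Which bases a region held went with how open it was predicted to be. Within the regions the mean unpaired probability was 0.608 for A, 0.402 for U, 0.364 for C and 0.314 for G. Across the 1505 regions the unpaired probability correlated with the share of A at a Pearson r of 0.438, of G at −0.325, of U at −0.284 and of C at 0.0868, given as a description of predictions that are computed from these bases. With the regions split into 3 nearly equal parts by their share of G and C, the medians were 0.480 in the lowest, 0.450 in the middle and 0.412 in the highest part. Regions with a run of at least 5 A averaged 0.563 ± 0.168, against 0.446 ± 0.136 in the others. Those with a run of at least 5 U averaged 0.395 ± 0.117, against 0.457 ± 0.142. The 5′ end said little about the next stretch, since its unpaired probability correlated with that of bases 21 to 40 at r = 0.0899.

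The most open named regions were mostly of A. MRP20, a mitochondrial ribosomal protein gene, had 0.956 with 80% A and an opening energy of 0.323 kcal/mol. CSR1, a phosphatidylinositol transfer protein gene, had 0.943 with 70% A, and VAM3, the gene of a vacuolar fusion protein, 0.882 with 65% A. The exceptions were ENP2, a ribosome biogenesis gene, with 0.882 at 30% A and 45% U, and NUP53, a nuclear pore gene, with 0.855 at 35% A. The other 5 of the 10, ROF1, ALY1, BDH1, WHI5 and MIX17, had 60% to 80% A. Without the GGG, MRP20 had 0.997, CSR1 0.996, VAM3 0.964, ENP2 0.975 and NUP53 0.830.

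The 10 most paired named regions were bound to other parts of the RNA, with a pair probability inside the region of at most 0.0534 (IFM1). RAD16, a nucleotide excision repair gene, had 0.0800, and 12 pairs joined bases 8 to 20 to bases 80 to 91, across the start codon. CRS1, the cysteinyl-tRNA synthetase gene, had 0.0950, with a pair probability of 0.803 to the coding part. MNT4, a mannosyltransferase gene, had 0.112 with 0.592 to the coding part, and HSE1, an endosomal sorting gene, 0.137 with 0.775. PRC1, the carboxypeptidase Y gene, had 0.140 with 60% A and 40% G in its region, and bases 6 to 20 formed 14 pairs with bases 34 to 50 of the leader.

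Most of the lowest values were higher without the GGG. These regions were picked as the lowest with the GGG, so some rise without it is given by the choice. CRS1 had 0.0950 with it and 0.389 without it, RAD16 0.0800 and 0.271, and IFM1, a mitochondrial initiation factor gene, 0.126 and 0.364. Others changed little, with 0.140 and 0.142 in PRC1, 0.137 and 0.162 in HSE1, and 0.138 and 0.129 in CMG1. Of the 10 most paired named regions 3 were among the 10 most paired without the GGG, and of the 10 most open 4 were among the 10 most open. Over all regions the values with and without the GGG correlated at r = 0.797.

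Some 5′ ends stood in sharp contrast to the 20 bases that follow. ENP2 had 0.882 in the first 20 bases and 0.244 in bases 21 to 40, and NUP53 0.855 and 0.262. IRC7, CNS1, a co-chaperone gene, and TAF13, a subunit gene of a general transcription factor, also exceeded the next stretch by more than 0.55, with 0.565, 0.562 and 0.553. In TIM13, which encodes a mitochondrial import chaperone, the order was opposite, with 0.278 in the first 20 bases and 0.988 in bases 21 to 40. HSP12, a stress-induced membrane protein gene, had 0.356 and 0.976. Its region folded on itself, with 6 pairs between bases 4 to 9 and 13 to 18, a hairpin near the 5′ end. Without the GGG this region had 0.402. ZPS1, FRS1, a phenylalanyl-tRNA synthetase subunit gene, and VHR1 differed in the same direction by −0.597, −0.592 and −0.571.

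With the GGG in place, longer leaders had less open 5′ ends than shorter ones. Leaders under 40 nt were not folded without the GGG, so this comparison was not made without it. The first 20 bases averaged 0.455 ± 0.142 in the 1505 longer leaders, against 0.498 ± 0.151 in 610 ORFs whose longest leader had 20 to 39 nt, a difference of −0.0439 (SE 0.00713). The share of A was 36.8% ± 13.4 in the longer and 42.1% ± 12.9 in the shorter leaders, a difference of −5.37 points (SE 0.627). Opening cost 0.770 kcal/mol more in the longer leaders (SE 0.146), with 7.29 against 6.52 kcal/mol. At equal A, U and G share the difference in unpaired probability was −0.0127 (interval −0.0246 to −0.000876). In leaders under 40 nt the first 20 bases lie closer to the start codon by the definition of the groups. Between strands, Watson regions averaged 0.453 ± 0.141 and Crick regions 0.493 ± 0.146, a difference of −0.0407 (SE 0.0178), and for the share of A the difference was −4.37 points (SE 1.58). These differences were not tested apart from the kind of ORF name.

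The gene lists overlapped widely. They cover only genes with a region here, from the part of the pool in the table used, and 1435 of the 1505 ORFs were Watson. They do not describe whole gene families. Over all 1505 regions the median unpaired probability was 0.445. The 8 autophagy genes had the lowest list median, 0.305, from 0.256 in ATG5, which encodes a part of the Atg8 conjugation machinery, to 0.580 in ATG18, a phosphoinositide-binding protein gene, and 2 of 8 lay above the overall median. Mitochondrial ribosomal protein genes had a median of 0.387 with 7 of 21 above it, from 0.251 in MRPL38 to 0.956 in MRP20. For ribosome biogenesis factors it was 0.392 with 12 of 34 above it, from 0.242 in NMD3, a 60S export adaptor gene, to 0.882 in ENP2. Respiratory chain and ATP synthase genes had 0.420, with 8 of 22 above, and aminoacyl-tRNA synthetases 0.419, with 5 of 11, from 0.0950 in CRS1 to 0.744 in MSE1, a mitochondrial glutamyl-tRNA synthetase gene.

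The highest list median belonged to translation initiation factors. Their 7 genes had 0.539, with 5 above the overall median, from 0.412 in GCD6, an eIF2B subunit gene, to 0.603 in SUI3, an eIF2 subunit gene. Chaperone and heat shock genes had 0.494, with 7 of 12 above, from 0.224 in CCT6 to 0.797 in CCT7, both subunits of the same chaperonin. Amino acid biosynthesis genes had 0.480 with 19 of 31 above, and hexose and amino acid transporters 0.481 with 6 of 10. Cytosolic ribosomal protein genes lay near the overall median with 0.454, from 0.268 in RPS10B to 0.728 in RPS21A. Of the 83 with a complete wild-type RNA here, only 18 had a leader of at least 40 nt. Proteasome subunit genes had 0.452, with 5 of 10 above. CYC1, the cytochrome c gene, had the highest value of the respiratory list, 0.723. No list was tested, and the 2 lists with the most extreme medians held 8 and 7 genes. All list values are with the added GGG, and the order of the lists without it was not examined.

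**Figure D5:**
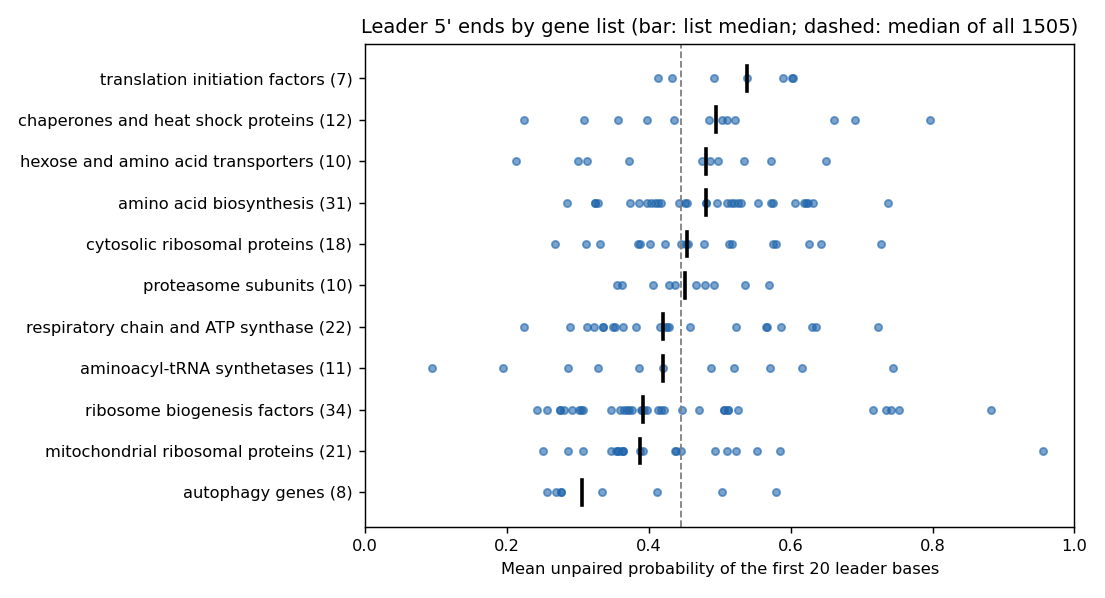
Mean unpaired probability of the first 20 leader bases for each gene (points) of 11 gene lists with at least 5 genes among the 1505 ORFs, the number of genes in parentheses; black bars are list medians and the dashed line is the median of all regions, 0.445. The lists overlap widely, with medians from 0.305 for autophagy genes to 0.539 for translation initiation factors.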

How the data were processed

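Per the labels' protocols, the pool RNA was made with T7 RNA polymerase and copied with the reverse transcriptase TGIRT-III. The submitters' processing notes list STAR and SAMtools, with neither version nor role, and no genome build is given in the sources used here. The authors deposited 1 table of 8 columns with a row per position of each pool RNA. Of these, the base letter and the RNA name were used, and the 6 columns of per-sample values were left out because their names give no condition. Those headed as mutation rates contain only integers.

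Rows were joined into sequences in file order. RNAs of 182 bases with a name of 2 fields were taken as complete and wild type. Folding used ViennaRNA 2.7.2 at 30 °C on the whole RNA, and opening energy is the ensemble energy with the 20 bases held unpaired minus that without. Predictions use no reactivity or protein. Only the temperature was set, and all other settings of the folding model, salt among them, were left at their defaults. Differences between windows are means over ORFs with SE and 95% normal intervals, shares have Wilson intervals, and values at equal composition come from a linear regression on the differences in A, U and G share. No p-values were computed, and all intervals describe this set of ORFs, without measurement error. The interval code was tested on simulated data with known answers.

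Named genes were, among ORFs with a symbol, the 10 highest and 10 lowest by unpaired probability, and the 5 highest and 5 lowest by its difference from bases 21 to 40 and by opening energy. They also include the 3 with the longest runs of A and of U and with the highest G and C share, and the extremes of each list of 5 or more genes. The members, the 12 gene lists and the tests were chosen with earlier results of these data known. The comparison of inner starts, the comparison with leaders of 20 to 39 nt at equal composition, the pairing of each window with the constant stretch and the split by suffixed ORF names were chosen after the file was read. Alternatives changed the folded RNA, the temperature, the leader used, the window and the strand.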

Additional observations from a re-analysis of the deposited data

How the results depend on the processing

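Of 121 alternative values, 100 counted as unchanged, by a rule that differed between measures. For differences between windows, direction and side of the threshold had to stay. Other means had to stay within the SD over ORFs, and first-base shares and correlations within the main interval. Counts of positions had to stay near the main count. The 100 therefore include shifts such as an unpaired probability of 0.524 without the GGG against 0.455 with it. Opening energy was 5.19 kcal/mol without the GGG against 7.29 with it. Folding without the GGG turned the unpaired probability of the first 20 bases against bases 21 to 40 to 0.0424 (0.0442 at equal composition), against the last 20 bases to 0.0130 (0.0429), and against the coding bases at equal composition to 0.0565. It moved the correlation with G and C share to −0.282, against −0.209 with it. Without the constant 3′ stretch the mean share of pairing with the coding part was 44.3%, against 27.4% with it, as that partner is then missing, and the coding difference at equal composition was 0.00422. In the 70 Crick ORFs alone the differences were −0.0314 (−0.0319 at equal composition), −0.0490 (−0.0354) and 0.0439 (0.00311) in the same order of windows, each with an interval that held 0. The A share there differed by 1.57 points from bases 21 to 40 and by 1.50 from the last 20 bases, and a purine came first in 95.7%. With leaders of at least 60 nt the coding difference was 0.00611 (−0.00867 at equal composition). The A share against bases 21 to 40 was 0.356 with each leader on its own, −0.738 with the shortest and 0.836 in Watson ORFs. The causes of these changes were not tested. Windows of other places could not be compared in leaders of 20 nt, so that alternative gave no value there. The bases upstream of the first leader base in a reference sequence were not analysed here. No paired analysis was possible because the replicate numbers belong to library values, whose columns name no condition and were not used, so windows were compared within each RNA instead.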
